A study of Homo sapiens with 6 samples.

Results

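Condensins are ring-shaped ATPase complexes that loop and compact chromatin into mitotic chromosomes. Their 8 subunits in human cells are the genes described here: the ATPases SMC2 and SMC4, which both complexes share, NCAPD2, NCAPG and NCAPH of condensin I, and NCAPD3, NCAPG2 and NCAPH2 of condensin II. They were taken by symbol from a table of 57773 Ensembl gene IDs, and all 8 matched 1 ID each. The libraries are poly(A) RNA from RPE1, an immortalised human retinal pigment epithelial line. Of these, 3 are from cells exposed for 24 h to Nutlin-3 at 2.5 µM and 3 from cells exposed to its solvent DMSO alone for that time. Nutlin-3 blocks the pocket of MDM2 that holds p53, so that p53 builds up. The series asks which genes answer to p53 in this line. The labels leave unsaid whether the triplicates were grown separately, so the p-values below stand against a spread that may be purely technical.

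In each condensin, the ATPase heads of the SMC pair are bridged by a kleisin (NCAPH or NCAPH2), to which a pair of HEAT-repeat proteins binds (NCAPD2 and NCAPG, or NCAPD3 and NCAPG2). Condensin II stays in the nucleus through interphase and acts from prophase, whereas condensin I reaches chromosomes after the nuclear envelope breaks down. Many mitotic genes carry a promoter element called the cell cycle genes homology region (CHR), which is bound by the MuvB core of the repressive DREAM complex. p53 activates the gene of the CDK inhibitor p21, and p21 favours the assembly of that complex.

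The promoters of these genes are shown first, and whether they bear on the results below was not tested. The sequences are from RefSeq on GRCh38.p14, read 5′ to 3′ on the strand of the gene, from base -210 before to base 10 after the listed start. Capitals mark TTTGAA, the usual CHR core, and CCAAT, the box bound by NF-Y, on either strand (TTCAAA and ATTGG where the letters lie on the other strand). For NCAPG2, where the TTTGAA lies after the start, only bases 24 to 47 are shown. SMC2, SMC4 and NCAPD3 have 2 listed starts each, and the start with TTTGAA is shown, chosen after the search.
SMC2, chr9:104094099-104094318, plus strand: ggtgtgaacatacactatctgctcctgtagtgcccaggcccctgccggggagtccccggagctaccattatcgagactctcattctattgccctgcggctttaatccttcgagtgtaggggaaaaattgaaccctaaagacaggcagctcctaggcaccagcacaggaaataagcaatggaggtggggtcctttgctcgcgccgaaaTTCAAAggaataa
SMC4, chr3:160399440-160399659, plus strand: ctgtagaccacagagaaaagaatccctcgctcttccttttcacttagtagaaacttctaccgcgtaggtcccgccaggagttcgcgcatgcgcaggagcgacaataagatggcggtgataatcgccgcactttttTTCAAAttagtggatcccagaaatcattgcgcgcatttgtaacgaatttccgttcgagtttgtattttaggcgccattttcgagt
NCAPD2, chr12:6493892-6494111, plus strand: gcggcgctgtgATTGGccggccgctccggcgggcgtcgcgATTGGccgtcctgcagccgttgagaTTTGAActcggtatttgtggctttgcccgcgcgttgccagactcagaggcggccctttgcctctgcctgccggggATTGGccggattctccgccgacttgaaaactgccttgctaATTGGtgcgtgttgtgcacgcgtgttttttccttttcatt
NCAPG, chr4:17810769-17810988, plus strand: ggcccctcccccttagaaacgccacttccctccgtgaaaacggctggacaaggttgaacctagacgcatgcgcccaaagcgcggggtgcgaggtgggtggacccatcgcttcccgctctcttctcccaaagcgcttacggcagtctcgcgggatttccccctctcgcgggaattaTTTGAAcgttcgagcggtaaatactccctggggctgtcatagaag
NCAPH, chr2:96335556-96335775, plus strand: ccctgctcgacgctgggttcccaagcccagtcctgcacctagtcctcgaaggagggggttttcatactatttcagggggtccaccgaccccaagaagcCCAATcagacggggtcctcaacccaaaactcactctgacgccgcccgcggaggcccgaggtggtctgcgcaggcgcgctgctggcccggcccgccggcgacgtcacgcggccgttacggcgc
NCAPD3, chr11:134223958-134224177, minus strand: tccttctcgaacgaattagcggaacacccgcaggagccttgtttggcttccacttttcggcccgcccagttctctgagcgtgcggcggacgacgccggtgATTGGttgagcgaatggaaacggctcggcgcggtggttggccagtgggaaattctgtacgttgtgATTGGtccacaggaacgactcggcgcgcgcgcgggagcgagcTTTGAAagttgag
NCAPG2, chr7:158704758-158704781, minus strand: ccggcgggtgcgTTTGAAtctggt

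Of the 8 genes, 7 were in the promoter table, and NCAPH2 was not matched. TTTGAA occurred in 6 of these 7, all but NCAPH, within windows from 250 bases before to 50 bases after a start. Over all 27305 genes in the table, 18.2% had it in at least 1 window, and over single windows it was found in 6 of 10 for the condensin genes and in 15.2% of all 35116. The letters lay from base -35 to -30 in NCAPG, from -75 to -70 in SMC4, from -145 to -140 in NCAPD2, across the start from -3 to 3 in SMC2 and NCAPD3, and from 36 to 41 in NCAPG2. CCAAT occurred in 3 of the 7 genes, with 4 copies in NCAPD2, 2 in NCAPD3 and 1 in NCAPH, against 39.7% of all genes. The variant TTCGAA and the exact E2F site strings TTTGGCGC and TTTCGCGC were found in 0 of the 7, against 1.82%, 0.795% and 0.630% of all genes. Other forms of the E2F site were not searched. A p53 half-site was found in 1 of the 7, at the other start of SMC2, against 8.06% of all genes. All motifs were searched on both strands, and none of the matches overlapped another. A match is a run of letters, not a measured binding site.

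The 6 libraries held between 28.4 and 41.0 M reads, as recovered from the deposited values. Of 8 markers of retinal pigment epithelium, 3 (OTX2, KRT8 and KRT18) had a mean of at least 0.5 RPKM (reads per kilobase, scaled to library size), and the defining gene RPE65 was near 0, with at most 2 reads in a library. MITF missed that mean, with 0.207 RPKM in DMSO. Per exon length, however, it had 6.59 in DMSO and 6.44 with Nutlin-3, beside 9.50 and 7.77 for OTX2. On that scale KRT8 and KRT18 had 32.4 and 50.9 in DMSO, and BEST1, RLBP1 and TYRP1 had 0.122, 0.165 and 0.0132. Per exon length, the 8 summed to 96.7 to 102.9 in DMSO and 151.9 to 161.2 in Nutlin-3 libraries. Most of each sum came from KRT8 and KRT18, which had 54.3 and 88.7 with Nutlin-3. The keratin genes KRT18 and KRT8 rose by limma, to 174% and 168% of DMSO, and OTX2, a transcription factor of this tissue, fell to 81.9% (adjusted p = 0.0233). The part of these markers in the results below was not tested. Of 8 markers of immune and endothelial cells 7 matched an ID. Per exon length these summed to 0.631 to 0.754 in DMSO and 0.572 to 0.656 in Nutlin-3 libraries, with CD3E and CDH5 at 0 in every library. The p53 target CDKN1A, which encodes p21, was 7.24 times as high with Nutlin-3.

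All 8 condensin genes fell with Nutlin-3, to between 27.6% (NCAPH) and 45.6% (NCAPD2) of their mean RPKM in DMSO. For each of the 8, every Nutlin-3 library lay below every DMSO library. By limma on log2(RPKM + 0.5), with Benjamini-Hochberg adjustment over all 12212 genes that had a mean of at least 0.5 RPKM, 8 of 8 passed an adjusted p of 0.05 downwards, against 22.5% of all genes tested. Separation of the groups downwards was found in 27.4% of all genes tested. A mean with Nutlin-3 of at most 50% of that in DMSO, which all 8 reached, was found in 3.41%. The median log2 fold change of the 8 was -1.02, and that of all genes tested 0.024. All 8 met the minimum mean, NCAPH only through DMSO, since its mean with Nutlin-3 was below 0.5 RPKM. In bulk RNA, fewer cells that express a gene and less of its RNA per cell cannot be told apart.

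**Figure D1:**
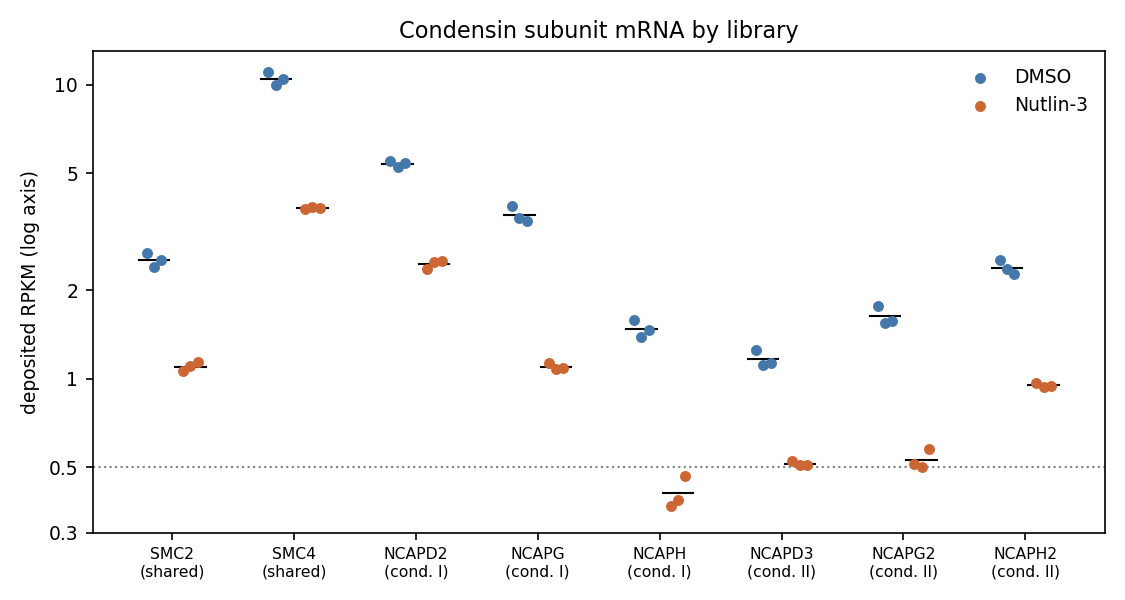
Deposited RPKM (log axis) of the 8 condensin genes in each of the 3 DMSO and 3 Nutlin-3 libraries; points are libraries, black lines are means, and the dotted line marks the minimum mean of 0.5 RPKM. The groups do not overlap for any of the 8, and NCAPH is the gene whose Nutlin-3 libraries all lie below that line.

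The SMC ATPases form the arms and the ATP-binding heads of the ring. SMC4 had 11.0, 9.96 and 10.4 RPKM in DMSO replicates 1, 2 and 3 and 3.79, 3.84 and 3.80 RPKM in Nutlin-3 replicates 1, 2 and 3. Its Nutlin-3 libraries were nearly level, and its mean fell from 10.5 ± 0.514 to 3.81 ± 0.0294 RPKM (SD, n = 3), to 36.4% of DMSO. SMC2 had 2.68, 2.40 and 2.54 RPKM in DMSO and 1.07, 1.10 and 1.14 RPKM with Nutlin-3. The mean of SMC2 fell from 2.54 ± 0.141 to 1.10 ± 0.0352 RPKM, to 43.4% of DMSO. The log2 fold changes were -1.34 (SE 0.040, limma adjusted p = 4.78e-05) for SMC4 and -0.92 (SE 0.041, adjusted p = 6.51e-05) for SMC2. Of all genes tested, 63 had a larger fall than SMC4 on this scale and 273 a larger fall than SMC2.

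NCAPD2 and NCAPG are the HEAT-repeat subunits of condensin I, and NCAPH is its kleisin. NCAPD2 had 5.52, 5.25 and 5.40 RPKM in DMSO and 2.36, 2.49 and 2.52 RPKM with Nutlin-3. NCAPG had 3.86, 3.52 and 3.45 RPKM in DMSO and 1.13, 1.08 and 1.09 RPKM with Nutlin-3. NCAPH had 1.58, 1.38 and 1.47 RPKM in DMSO and 0.369, 0.387 and 0.469 RPKM with Nutlin-3, and replicate 3 was the highest of its Nutlin-3 libraries. The means fell from 5.39 ± 0.136 to 2.46 ± 0.0853 RPKM for NCAPD2, from 3.61 ± 0.218 to 1.10 ± 0.0255 RPKM for NCAPG and from 1.48 ± 0.10 to 0.408 ± 0.0531 RPKM for NCAPH. These are 45.6%, 30.5% and 27.6% of DMSO, so the subunits of condensin I span the whole range of the 8 genes. The log2 fold changes were -0.99 (limma adjusted p = 4.89e-05) for NCAPD2, -1.36 (adjusted p = 4.78e-05) for NCAPG and -1.12 (adjusted p = 9.29e-05) for NCAPH. NCAPH thus ranked behind NCAPG on this scale although its ratio of means was lower, because the added 0.5 weighs more at low RPKM.

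NCAPD3 and NCAPG2 are the HEAT-repeat subunits of condensin II, and NCAPH2 is its kleisin. NCAPD3 had 1.26, 1.11 and 1.13 RPKM in DMSO and 0.524, 0.508 and 0.511 RPKM with Nutlin-3. NCAPG2 had 1.77, 1.55 and 1.58 RPKM in DMSO and 0.514, 0.503 and 0.578 RPKM with Nutlin-3. NCAPH2 had 2.53, 2.37 and 2.27 RPKM in DMSO and 0.971, 0.939 and 0.947 RPKM with Nutlin-3. DMSO replicate 1 was the highest library for each of the 3 genes, as it was for the other 5. The means fell from 1.17 ± 0.0782 to 0.514 ± 0.00845 RPKM for NCAPD3 (44.1% of DMSO), from 1.63 ± 0.12 to 0.532 ± 0.0405 RPKM for NCAPG2 (32.5%) and from 2.39 ± 0.129 to 0.952 ± 0.0168 RPKM for NCAPH2 (39.9%). The log2 fold changes were -0.71 (limma adjusted p = 1.08e-04) for NCAPD3, -1.05 (adjusted p = 8.23e-05) for NCAPG2 and -0.99 (adjusted p = 5.45e-05) for NCAPH2.

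The deposited RPKM were divided by the whole span of each gene, introns included. A gene of few exons in a long span therefore has a low RPKM, and levels of different genes can be compared only per exon length. The exon-length values given here take all recovered reads to lie in exons. Whether they do is not known, since the counter is not given. Merged exon length joins all annotated exons of a gene and can exceed the length of any single mRNA. The order of levels between genes and the shares given below thus depend on the annotation too. Reads recovered from the RPKM ranged from 439 (NCAPH2, Nutlin-3 replicate 3) to 16577 (SMC4, DMSO replicate 1) per library. limma voom on the recovered reads, which adds 0.5 of a read in place of 0.5 RPKM, again called 8 of 8 downwards, against 24.3% of 20728 genes tested. On that scale the log2 fold changes ran from -1.87 (SE 0.070) for NCAPH and -1.72 (SE 0.047) for NCAPG, through -1.63 for NCAPG2, -1.46 for SMC4 and -1.33 for NCAPH2, to -1.21 for SMC2, -1.18 (SE 0.048) for NCAPD3 and -1.13 (SE 0.037) for NCAPD2. The median was -1.39. On the reads, the kleisin and the G subunit of condensin I and the G subunit of condensin II thus had the 3 largest falls, and both D subunits had the smallest. This order was not tested, and SMC2 (SE 0.044) lay close to NCAPD3. By limma on log2(RPKM + 0.5), NCAPD2 (-0.99) fell more than SMC2 (-0.92).

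**Figure D2:**
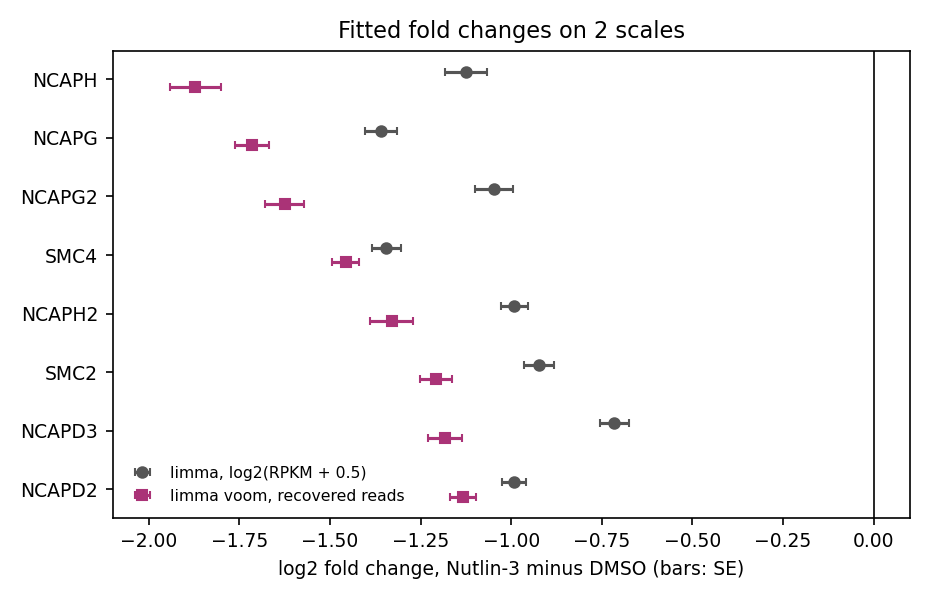
Log2 fold changes of the 8 genes (Nutlin-3 minus DMSO) from limma on log2(RPKM + 0.5), grey circles, and from limma voom on recovered reads, purple squares; bars are SE. Every gene lies below 0 on both scales, and NCAPH moves from -1.12 to -1.87.

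Divided by merged exon length, the levels in DMSO were highest for SMC4, with 44.1 ± 2.17 RPKM of exon length (SD, n = 3). NCAPD2 followed with 32.1 ± 0.810, NCAPG with 24.9 ± 1.51 and SMC2 with 18.5 ± 1.03 on this exon-length scale. NCAPG2 (17.2 ± 1.26) and NCAPH (17.2 ± 1.16) came next, then NCAPH2 (11.5 ± 0.622) and NCAPD3 (9.64 ± 0.646). Libraries overlapped between SMC2 and NCAPG2 and between NCAPG2 and NCAPH, and the other neighbours in the order did not overlap. With Nutlin-3 the levels were 16.1 ± 0.124 for SMC4, 14.6 ± 0.507 for NCAPD2, 8.03 ± 0.257 for SMC2 and 7.59 ± 0.176 for NCAPG, then 5.59 ± 0.426 for NCAPG2, 4.74 ± 0.617 for NCAPH, 4.60 ± 0.0810 for NCAPH2 and 4.25 ± 0.0699 for NCAPD3. Here SMC2 and NCAPG, NCAPG2 and NCAPH, and NCAPH and NCAPH2 overlapped. SMC2 and NCAPG, with no overlap and NCAPG higher in DMSO, were thus no longer separated with Nutlin-3.

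**Figure D3:**
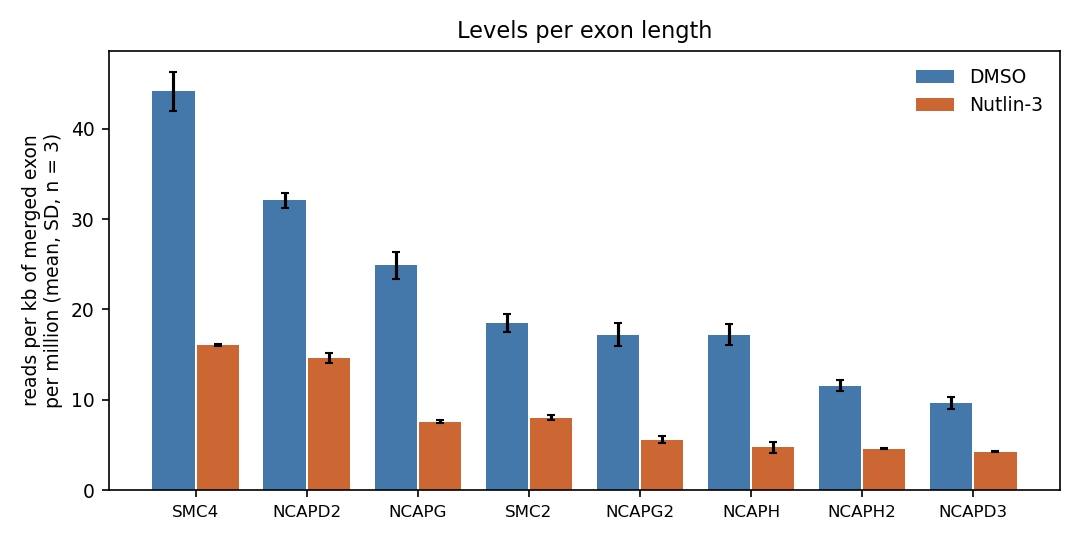
Mean level per exon length (reads per kilobase of merged exon, per M reads) of the 8 genes in DMSO and Nutlin-3, ordered by the DMSO level; bars are means of 3 libraries and error bars are SD. SMC4 is highest and NCAPD3 lowest in both groups.

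Summed per exon length, the 3 subunits that condensin I does not share came to 74.1 ± 3.29 in DMSO and 27.0 ± 0.925 with Nutlin-3. The corresponding 3 of condensin II came to 38.4 ± 2.48 and 14.4 ± 0.426. The condensin I mRNAs thus made up 65.4%, 65.9% and 66.4% of the sum of both in DMSO replicates 1, 2 and 3. In Nutlin-3 replicates 1, 2 and 3 they made up 64.4%, 65.6% and 65.3%. The mean share was 65.9% ± 0.517 and 65.1% ± 0.633, and the groups overlapped. The sum for condensin I with Nutlin-3 was 36.4% of that in DMSO and the sum for condensin II 37.6%.

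Counterparts were compared as log2 ratios within each library. Gene length and library scaling cancel in the change only where no pseudocount is added. Without a pseudocount, SMC4 over SMC2 was 2.04 ± 0.0114 in DMSO and 1.79 ± 0.0450 with Nutlin-3 (SD, n = 3), a change of -0.25 with no overlap between the groups. NCAPH2 over NCAPH was 0.69 ± 0.0737 and 1.23 ± 0.196, a change of 0.54, also with no overlap. Each of these changes had a 2-sided exact permutation p = 0.1, the smallest that 3 against 3 libraries allow, and an adjusted p = 0.2 over the 4 pairs. NCAPG2 over NCAPG changed by 0.093 (exact permutation p = 0.3) and NCAPD3 over NCAPD2 by -0.046 (exact permutation p = 0.5), both less than the spread of the Nutlin-3 libraries (SD 0.121 and 0.0732).

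With the pseudocount of 0.5 RPKM chosen for the per-gene test, the same ratios gave changes of -0.42 for SMC4 over SMC2, 0.28 for NCAPD3 over NCAPD2, 0.31 for NCAPG2 over NCAPG and 0.13 for NCAPH2 over NCAPH. The first 3 had an exact permutation p = 0.1 (adjusted p = 0.133) and the last an exact permutation p = 0.2. The pair of D subunits thus turned direction and the pair of kleisins moved most without the pseudocount, which was tried after seeing the data. None of the 4 differences can pass the threshold by the exact permutation test, and no other test was run on them. Of the 4, SMC4 over SMC2 was the pair that separated the groups in the same direction with either setting.

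**Figure D4:**
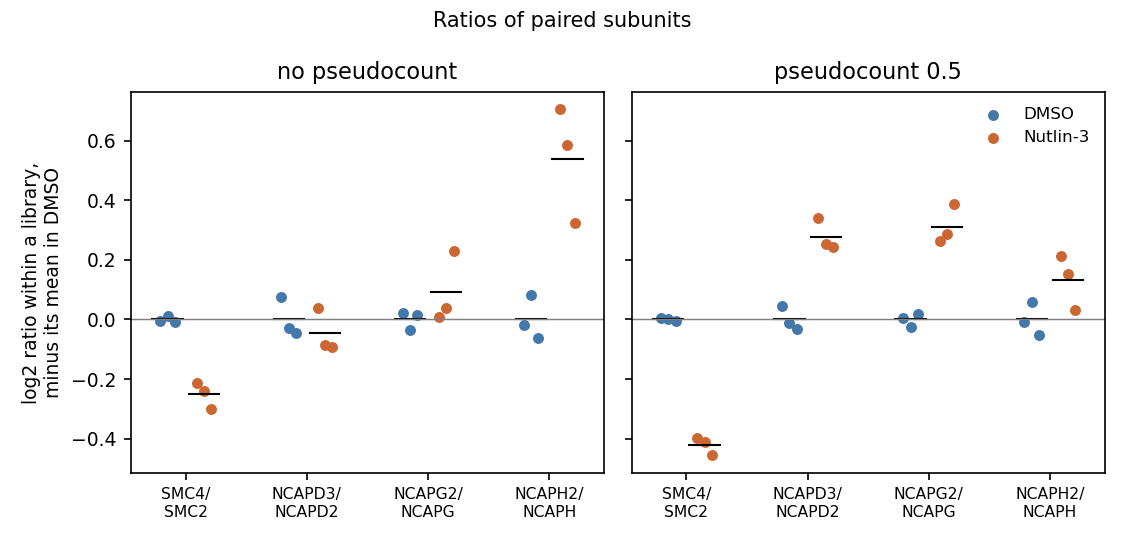
Log2 ratio of each pair of counterpart genes within a library, minus its mean in the 3 DMSO libraries, without a pseudocount (left) and with 0.5 RPKM added (right); points are libraries and black lines are means. SMC4 over SMC2 is lower with Nutlin-3 in both panels, by -0.25 and -0.42, and NCAPD3 over NCAPD2 changes side.

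Whether counting used the strand is not given in the sources used here. NCAPG shares 33.1% of its exon length with LCORL on the opposite strand, and SMC4 25.6% with TRIM59 and IFT80. LCORL had 1061 to 1371 reads per library in DMSO and 601 to 725 with Nutlin-3, where NCAPG had 3559 to 5536 and 1123 to 1316. IFT80 had 1964 to 2687 and 2072 to 2488 reads and TRIM59 1023 to 1543 and 596 to 718, where SMC4 had 10594 to 16577 and 4122 to 4912. NCAPD2 shares 7.49% with MRPL51, and NCAPD3 8.89% with JAM3, VPS26B and AP001775.2. The part of these neighbours in the values was not tested. SMC2, NCAPH, NCAPG2 and NCAPH2 share no exon with another gene. Only overlap between exons was examined, so genes lying within introns were not looked for. Among pseudogene copies, NCAPGP2 had 32 to 41 reads per library in DMSO and 9 to 11 with Nutlin-3, NCAPD2P1 21 to 32 and 17 to 19, NCAPGP1 4 to 5 and 0 to 1, and SMC4P1 0 in all libraries, so few reads lay at these copies.

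The genes most like a condensin gene in profile were sought by the root mean square difference of centred log2(RPKM + 0.5) values over the 6 libraries. For NCAPG, with the largest fall on that scale, these were DEPDC1 (0.0185), IQGAP3 (0.0293) and UBE2T (0.0313). The nearest condensin gene was SMC4 at 0.0326, and the other 6 condensin genes lay between 0.133 (NCAPH) and 0.323 (NCAPD3). For NCAPD3, with the smallest fall, they were TOPBP1 (0.0142), LBR (0.0179) and PASK (0.0193), and the nearest condensin gene was SMC2 at 0.108. The measure follows the fitted change with 0.5 RPKM added, so a near profile need not have a like level or a like ratio of means. DEPDC1, IQGAP3 and UBE2T had 3.56, 3.51 and 3.76 RPKM in DMSO beside the 3.61 of NCAPG, while SMC4 had 10.5. LBR fell from 5.59 ± 0.237 to 3.21 ± 0.0884 RPKM, a smaller fall in proportion than that of NCAPD3, from 1.17 to 0.514.

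Among 16 regulators and partners of condensin, such as the kinases that phosphorylate it and proteins of the mitotic chromosome axis and surface, 14 were tested, 10 fell and 2 rose (over all genes tested 22.5% fell and 29.1% rose), with a median log2 fold change of -0.60. The Ki-67 gene MKI67, whose protein coats mitotic chromosomes, fell to 27.3% of DMSO (log2 fold change -1.81, limma adjusted p = 3.59e-05). AURKB, the Aurora kinase that promotes loading of condensin I, fell from 8.61 ± 0.699 to 2.43 ± 0.225 RPKM, to 28.3%. TOP2A, the topoisomerase of the chromosome axis, fell from 17.9 ± 0.777 to 5.88 ± 0.232 RPKM, to 32.9%. KIF4A, the kinesin that works with condensin I, missed the minimum mean and is named after its values were seen: it had 0.547 ± 0.00909 RPKM in DMSO and 0.177 ± 0.00288 with Nutlin-3, and limma voom on reads called its fall (-1.63, adjusted p = 1.99e-18). The 2 genes that rose were PPP2R1A, the scaffold of the phosphatase PP2A, at 121% of DMSO, and AKAP8L, a relative of the chromatin anchor AKAP8, at 113%. AKAP8L (adjusted p = 0.0217) no longer passed when Nutlin-3 replicate 1 or 2 was left out (limma adjusted p = 0.0632 and 0.0583) and with the replicate number as a block (adjusted p = 0.0810).

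Cohesin, the SMC complex that holds sister chromatids together, was taken with its regulators as a list of 18 genes. limma tested 12, of which 11 fell and 0 rose, also at an unadjusted p of 0.05, with a median log2 fold change of -0.81, where 22.5% of all genes tested fell. ESCO2 and SGO1, an acetyltransferase and a protector of cohesin, met the minimum mean only through DMSO, with 0.854 ± 0.0827 and 0.789 ± 0.0240 RPKM there and 0.240 ± 0.0135 and 0.239 ± 0.0242 RPKM with Nutlin-3. Of the other 10 genes tested, 9 fell, with a median of -0.77. The separase gene ESPL1 fell from 2.18 ± 0.145 to 0.600 ± 0.0425 RPKM (27.5% of DMSO), the sororin gene CDCA5 from 2.91 ± 0.306 to 0.896 ± 0.0167 RPKM (30.8%) and the securin gene PTTG1 from 10.2 ± 0.967 to 3.96 ± 0.0960 RPKM (39.0%). The cohesin ring genes SMC1A, SMC3 and RAD21, named after their values were seen, fell to 51.3%, 56.0% and 51.5% of DMSO. All 8 condensin genes lay below these 3 in percent of DMSO, a difference that was not tested. The SMC5/6 complex acts in DNA repair. limma tested 6 of its 9 genes, of which 4 fell and 0 rose (1 at an unadjusted p of 0.05), beside the same 22.5% of all genes, and the median log2 fold change was -0.30. NSMCE4A fell to 53.6%, the loading factor SLF2 to 67.0% and EID3 to 64.3% of DMSO. EID3 had only 49 to 70 reads per library in DMSO and 30 to 40 with Nutlin-3. SLF1, named after its values were seen, missed the minimum mean. Its mean with Nutlin-3 was 46.7% of that in DMSO, and limma voom on reads called its fall (log2 fold change -1.10, adjusted p = 2.35e-12). EID3 (limma adjusted p = 0.0153) no longer passed when Nutlin-3 replicate 2 was left out (adjusted p = 0.0517) and with the replicate block (adjusted p = 0.0533). On the recovered reads 13 of 16, 15 of 18 and 7 of 9 genes of the 3 lists fell by limma voom, and 2, 0 and 0 rose, where 24.3% of all genes tested fell and 26% rose. The voom medians were -0.76, -0.66 and -0.44 in the same order, so cohesin no longer had the lowest of the 3. STAG1, STAG2, NIPBL, PDS5B, ESCO1 and HDAC8 of the cohesin list had missed the minimum mean. Their voom log2 fold changes ran from -0.79 (PDS5B) to -0.078 (HDAC8).

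**Figure D5:**
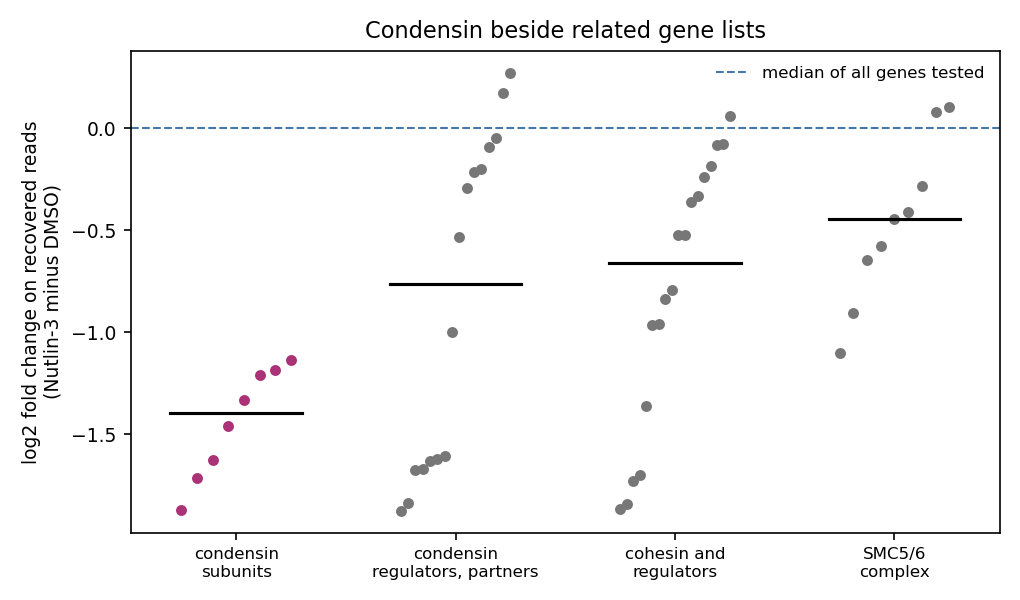
Log2 fold changes on recovered reads (Nutlin-3 minus DMSO, limma voom) of the 8 condensin genes, 16 condensin regulators and partners, 18 genes of cohesin and its regulators and 9 genes of the SMC5/6 complex; points are genes, black lines are medians, and the dashed line is the median of all genes tested. The condensin genes lie between -1.87 and -1.13, and the other lists reach from below -1 to above 0.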

How the data were processed

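Poly(A) RNA of 3 DMSO and 3 Nutlin-3 samples of RPE1 cells was sequenced from stranded TruSeq libraries, per the labels' protocols. The submitters' processing notes name CASAVA 1.8.2, TopHat2 and edgeR, and hg19 as the build; their roles, the counter and the annotation are not given in the sources. The authors deposited RPKM, 1 column per library. With gene spans from GENCODE 29, 90.6% of values below 10 reads came out whole (tolerance 0.01 read), and 24.1% with exon lengths. The library sizes for both had been fitted on gene spans, so the 2 shares are not an even comparison. Spans gave the reads of 27538 genes, and 8825 more were given the smallest whole numbers that keep their ratios between libraries. NCAPD3 and NCAPG2 are among these, and the lengths they imply, 75335 and 73518 bases, lie 1 base from the GENCODE spans. The library sizes implied by the RPKM were 1.03 to 1.05 times the recovered reads in DMSO and 0.962 to 0.981 times in Nutlin-3, so they had been scaled.

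The per-gene test was limma 3.58.1 (R 4.3.3, trend, group as the only term) on log2(RPKM + 0.5) for means from 0.5 RPKM up; folds on that scale understate the change of low genes. limma voom on reads (mean of at least 10) was an alternative. Both were also run on simulated reads with simpler settings than these data, and no result here rests on that run. Pairs were tested with scipy 1.17.1. Named genes are all 8 members, the 3 largest changes (log2(RPKM + 0.5) scale) and up to 2 opposite changes among the called genes of each list, the 3 nearest profiles of 2 members, and CDKN1A. MDM2, also in the rule, is not described further. The members and lists were chosen with earlier results of these data known.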

Additional observations from a re-analysis of the deposited data

How the results depend on the processing

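All 8 condensin genes passed downwards in each of the 14 alternative settings, except that a minimum mean of 1 RPKM left NCAPH and NCAPD3 untested. Their median log2 fold change was -1.34 with a pseudocount of 0.1, -0.81 with 1 and -1.39 by limma voom on recovered reads, and from -1.04 to -0.99 when 1 library was left out. Voom, which differs in scale, weights and minimum at once, called 5045 genes downwards and 5379 upwards, against 2745 and 3551. NCAPD3 over NCAPD2 turned to -0.046 without a pseudocount. Falls in the SMC5/6 list numbered 7 without a filter and 7 by voom, 2 at a minimum of 1 RPKM, and 3 to 4 when 1 library was left out, and 1 of its genes rose under median-of-ratios scaling. Cohesin falls numbered 7 at a minimum of 1 RPKM, 14 without a filter, 15 by voom, and 9 to 11 when 1 library was left out (9 without any 1 DMSO library). Without any 1 DMSO library, ESCO2 and SGO1 lay below the minimum mean of 0.5 RPKM and were not tested. For the other changes in these counts, the cause was not tested beyond the number of genes kept. In the list of regulators 1 gene rose, not 2, with the replicate block, and 1 to 2 when 1 library was left out. The share of the condensin I mRNAs was 66.9% in DMSO and 66.5% with Nutlin-3 when gene span replaced exon length.

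No pairing by replicate number was seen in the values: deviations of same-numbered libraries correlated at -0.0246, 0.00795 and 0.0174 across genes. Whether the libraries were paired by design cannot be told from these correlations. With the number as a block, 2199 genes were called downwards and 2936 upwards, and 8 of 8 condensin genes fell. Among the condensin genes, reads per library limit NCAPH2 and NCAPH most, with 439 to 542 reads with Nutlin-3.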
